A study of Sus scrofa with 28 samples.

Results

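The 6 genes described here, of the extracellular matrix and of matrix-producing cells, were measured in kidney tissue of male, castrated Göttingen Minipigs and are 6 of the 73 kidney genes of a qPCR panel that also held 4 reference genes. They were chosen by function: fibronectin (FN1) and a basement membrane collagen chain (COL4A2) as matrix proteins, integrin alpha 5 (ITGA5) as a matrix receptor, TIMP2 as an inhibitor of matrix breakdown, and smooth muscle actin (ACTA2) and vimentin (deposited as VIM1) as genes of mesenchymal cells and myofibroblasts. All 28 animals entered, each as 1 replicate. The SD group (n = 7) ate a standard diet. The FFC group (n = 13) ate a diet rich in fat, fructose and cholesterol, with 2% cholesterol at first and 1% later. The FFC-DIA group (n = 8) ate this kind of diet with 1% cholesterol throughout and was made diabetic with streptozotocin, which kills pancreatic beta cells and was given at 60 mg/kg on 3 days, followed by daily insulin. Diabetes, streptozotocin itself, insulin and the early cholesterol content therefore cannot be told apart between FFC-DIA and FFC. By the study, animals lost before the end came mainly from its diabetic groups, so survival cannot be told apart from these either. By the study's methods the animals were about 7 months old at the start and were sampled in month 13. The model rests on a chemically induced, insulin-treated diabetes in castrated males.

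In the kidney, matrix is laid down around glomerular capillaries by podocytes, endothelium and mesangial cells, and around tubules by fibroblasts. Fibronectin assembles into fibrils on cells that hold its receptor, the integrin of alpha 5 and beta 1 chains, while type IV collagen forms the sheet of the basement membrane. TIMP2 binds matrix metalloproteinases and also takes part in the activation of MMP2. Smooth muscle actin marks arterial smooth muscle in the healthy cortex and myofibroblasts in scarring tissue, and vimentin is an intermediate filament protein of mesenchymal cells that podocytes and endothelium also express. In RNA from whole tissue, fewer cells of a type and less RNA per cell cannot be told apart.

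Each value stands for the product between a pair of primers. The 12 primers of these assays, 20 to 22 bases long, are shown because they define what each gene name stands for, 5′ to 3′ as the study's primer table gives them and with no base singled out.
FN1 forward: cccgtgccaagattactggt
FN1 reverse: tgtactcggttgctggttcc
COL4A2 forward: tcatgggcttttccggatcg
COL4A2 reverse: tatccgtcagggccttcgta
ITGA5 forward: ttcaacttagacgcggaggc
ITGA5 reverse: agtgttagccttgggtgctc
TIMP2 forward: gcaacaggcgttttgcaatg
TIMP2 reverse: ctggatccgtttgatggggt
ACTA2 forward: gttttcccgtccattgtggg
ACTA2 reverse: tttgctttgggcttcgtcac
VIM1 forward: tgctgaatgtcaagatggctct
VIM1 reverse: cagagggagggattccagattg
The VIM1 pair is the longest. Actin genes are close in sequence, so how far the ACTA2 pair excludes other actins was not tested here.

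The deposited value is the quantification cycle (Cq), the PCR cycle at which fluorescence passes a threshold, so that a lower Cq means more transcript. The level of a gene was its Cq subtracted from the average of the ACTB, TBP1 and RPL4 cycles of that animal, a log2 value in which 1 unit is a doubling. Since a large share of the panel moved together when scaled this way, every gene is also given relative to the mean level of the 73 kidney genes in each animal, here called the panel-relative level. All 168 Cq values of the members were present. The median Cq of the members lay between 6.90 (VIM1) and 14.9 (COL4A2). Mean RPL4 Cq was 7.86 in SD, 8.11 in FFC-DIA and 9.30 in FFC, and mean panel level was -4.17, -3.93 and -3.65 in the same order. Of the 12 markers of cell types present in kidney, none lacked a Cq in any animal, and the latest came at 20.4 cycles. By the study's methods the animals were run in 3 cohorts, each with animals of every group. The sample labels do not give an animal's cohort, and its part in the results was not tested.

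The question put to the members was whether either obesogenic diet, without or with diabetes, went with a different level of matrix and mesenchymal transcripts. Across the 3 groups, 0 of the 6 members passed a permutation test of the F statistic after Bonferroni adjustment, against 5.48% of the panel. Unadjusted permutation p-values were 0.0241 for VIM1, 0.0257 for FN1, 0.0393 for TIMP2, 0.0403 for ACTA2, 0.0540 for ITGA5 and 0.181 for COL4A2. Between FFC and SD, TIMP2 and VIM1 passed the exact permutation test with Benjamini-Hochberg adjustment over all 73 genes, 2 of 6 members against 19.2% of the panel. Both were higher in FFC. Between FFC-DIA and SD 0 of 6 passed, against 2.74% of the panel, and between FFC-DIA and FFC 0 of 6, against 5.48%. At an unadjusted p under 0.05 there were 4 members in FFC vs. SD against 37.0% of the panel, 0 in FFC-DIA vs. SD against 11.0%, and 1, ACTA2, in FFC-DIA vs. FFC against 21.9% (exact permutation test). On the panel-relative scale, and with ACTB and TBP1 as the only references, no member passed in any of the 3 comparisons by this test. The shares of the panel that passed in FFC vs. SD, FFC-DIA vs. SD and FFC-DIA vs. FFC were 1.37%, 4.11% and 8.22% on the first of these scales and 0%, 5.48% and 8.22% on the other. In FFC vs. SD 2 members had an unadjusted p-value under 0.05 on each scale, FN1 and TIMP2 on the panel-relative one, against 15.1% of the panel on both. In FFC-DIA vs. SD there were 0 on each, against 15.1% and 13.7%, and in FFC-DIA vs. FFC 1 on each, against 17.8% on both.

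Over the 6 members the median log2 difference of FFC from SD was 0.70, and over all 73 genes it was 0.55. In FFC-DIA vs. SD these medians were 0.45 and 0.21, and in FFC-DIA vs. FFC they were -0.48 and -0.33. All members but COL4A2, 5 of 6, were higher in FFC than in SD, and 65 of 73 genes were. Relative to the panel mean the same 5 members had a positive difference, and 39 of 73 genes had one. The median was 0.18 over the 6 members and 0.03 over the panel. The differences of ACTA2 (0.08 ± 0.24) and VIM1 (0.08 ± 0.11) were smaller than their SE.

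**Figure D1:**
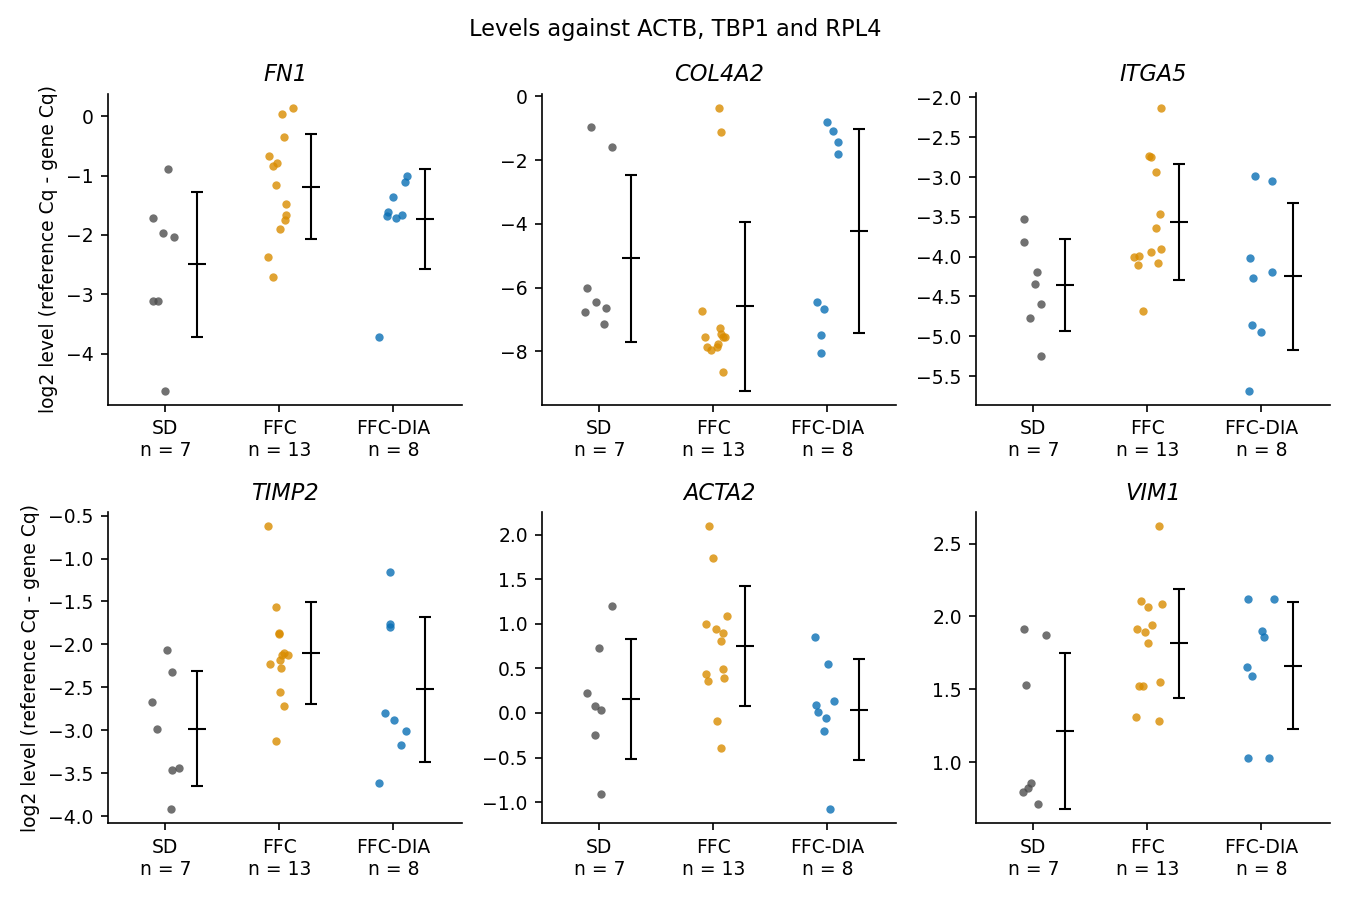
Levels of the 6 genes in each animal (vertical axes, log2, cycles of the 3 reference genes on average minus gene Cq) by diet group. Points are animals, and bars are the mean ± standard deviation of 7 SD, 13 FFC and 8 FFC-DIA animals. All 13 FFC animals lie above the SD mean of VIM1, and COL4A2 forms 2 separate clusters in every group.

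FN1, the gene of fibronectin, had the largest difference between FFC and SD among the 5 members whose animals form 1 cloud. Its level ranged from -4.62 to -0.89 in SD (median -2.03), from -2.70 to 0.15 in FFC (median -1.15) and from -3.72 to -1.01 in FFC-DIA (median -1.64). The groups overlapped, as 6 of 13 FFC animals exceeded every SD animal, and 3 of 7 SD animals were below every FFC animal. Group means were -2.49 ± 1.22 in SD, -1.73 ± 0.85 in FFC-DIA and -1.19 ± 0.89 in FFC (standard deviation). FFC exceeded SD by 1.30 ± 0.52 (SE) on the log2 scale, a factor of 2.47, with p = 0.0120 and adjusted p = 0.0586 in the exact permutation test. With limma's moderated statistics the adjusted p was 0.0464, and without FFC animal 13, SD animal 4 or SD animal 5 the exact permutation test also passed, so the call depended on the test and on single animals. FFC-DIA lay 0.76 ± 0.55 above SD and 0.54 ± 0.39 below FFC, with adjusted p-values of 0.660 and 0.405 in the exact permutation test. The order of mean levels was thus SD, FFC-DIA, FFC, and no neighbours in it differed beyond their spread. SD animal 7 and FFC-DIA animal 1 were the lowest of their groups. Without SD animal 7 the FFC-DIA minus SD difference was 0.41, and without FFC-DIA animal 1 the FFC-DIA minus FFC difference was -0.26. Relative to the panel mean, FFC exceeded SD by 0.79 ± 0.38 (exact permutation p = 0.0385, adjusted p = 0.255).

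The transcript whose panel-relative level most resembled that of FN1, once group means were subtracted, was COL1A1, a chain of fibrillar type I collagen and no member of the set. Over the 28 animals r was 0.78 and Spearman's rho 0.75, and r was 0.77 without the 2 animals farthest from the FN1 median. Complement C3 came next (r = 0.56, rho = 0.55). These correlations are descriptions over animals that share a chip, and genes share the panel mean.

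COL1A1 itself had close means in the 3 groups on the level scale, -0.48 ± 0.82 in SD, -0.45 ± 0.55 in FFC-DIA and -0.45 ± 0.87 in FFC (standard deviation). The FFC minus SD difference was 0.03 ± 0.39 (SE, exact permutation adjusted p = 0.949). Relative to the panel mean COL1A1 lay 0.48 ± 0.28 lower in FFC (exact permutation p = 0.118), where FN1 lay 0.79 higher. With ACTB and TBP1 as references COL1A1 lay 0.38 ± 0.35 lower and FN1 0.90 higher. How the 2 genes share the difference in their ratio thus depended on the scale. The log2 ratio of FN1 to COL1A1 within an animal, in which the reference genes cancel out, was therefore examined, a choice made after both genes had been seen. This ratio ran from -2.92 to -1.25 in SD (median -1.92), from -1.24 to -0.01 in FFC (median -0.75) and from -2.12 to -0.74 in FFC-DIA (median -1.21). Every FFC animal was above every SD animal, although the nearest animals of both groups were only 0.01 apart (-1.242 against -1.255). FFC-DIA overlapped both groups.

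The mean ratio was higher in FFC than in SD by 1.27 ± 0.26 (SE). Its exact permutation p was 1.29e-05, the smallest that 77520 splits can give, and its adjusted p over all 2628 pairs of kidney genes was 0.0170. Only 0.457% of all pairs passed in this comparison. With 1 of the 20 animals left out in turn the difference ran from 1.12 to 1.40. With p-values from the t distribution the adjusted p was 0.0714, so the call depended on the test. In FFC-DIA vs. SD the ratio was 0.73 ± 0.28 higher (exact permutation p = 0.0214, adjusted p = 0.189), where 5.02% of pairs passed. In FFC-DIA vs. FFC it was lower by 0.54 ± 0.19 (exact permutation p = 0.00840, adjusted p = 0.105), where 5.82% of pairs passed, and the FFC mean exceeded each of the 8 FFC-DIA animals. Neither of these passed.

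**Figure D2:**
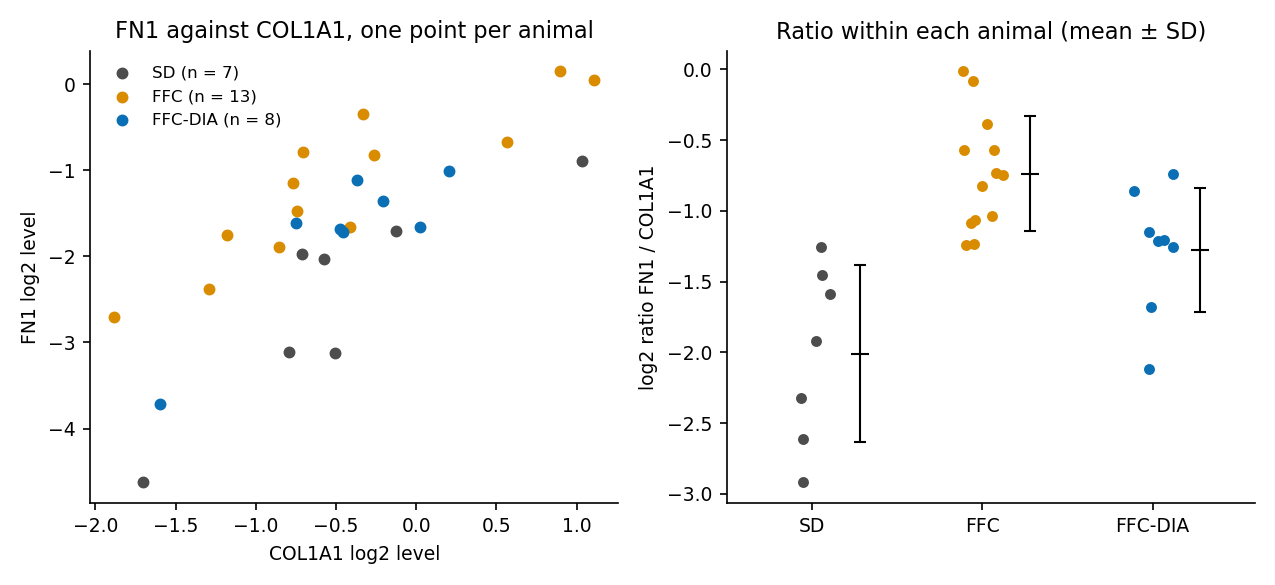
Left, FN1 level against COL1A1 level (log2, reference-scaled), 1 point per animal. Right, the log2 ratio of FN1 to COL1A1 within each animal by group, with bars for the mean ± standard deviation; the SD points run from -2.92 to -1.25 and the FFC points from -1.24 to -0.01.

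COL4A2 encodes the alpha 2 chain of type IV collagen, which joins with alpha 1 chains in basement membranes. Its animals formed 2 clusters on the level scale. The high cluster held 8 animals between -1.82 and -0.35, the low one 20 animals between -8.64 and -6.00, and no animal lay in the gap of 4.18 log2 units, an 18.2-fold distance. In cycles the clusters spanned 8.69 to 11.2 and 14.0 to 18.5. High animals were 2 of 7 in SD (animals 6 and 7, levels -1.58 and -0.97), 2 of 13 in FFC (animals 8 and 11, levels -0.35 and -1.10) and 4 of 8 in FFC-DIA (animals 1, 3, 5 and 7, levels -1.44, -0.81, -1.08 and -1.82). Both clusters thus occurred in every group.

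None of the other 72 kidney genes separated the same animals without overlap. A gap of over 2 log2 units with at least 4 animals on each side was found for 2 genes of the panel, COL4A2 and the growth factor IGF1, whose gap was 2.94. IGF1 was high in 19 animals and low in 9. The animals differed between these splits, since 6 were high for both, 7 low for both, 13 high for IGF1 only and 2 high for COL4A2 only. TBP1 Cq, as a measure of input, ran from 10.4 to 13.3 in the high COL4A2 cluster and from 10.5 to 13.2 in the low one. What sets the clusters apart was not tested.

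Group means of COL4A2 depend on how many animals fall in each cluster and are given only for completeness. They were -5.08 ± 2.63 in SD, -4.23 ± 3.20 in FFC-DIA and -6.59 ± 2.64 in FFC (standard deviation). FFC lay 1.51 ± 1.23 (SE) below SD, FFC-DIA 0.85 ± 1.51 above SD and 2.36 ± 1.35 above FFC, with adjusted p-values of 0.309, 0.906 and 0.247 in the exact permutation test. With 1 animal left out, the FFC minus SD difference ran from -2.03 to -0.83 (-0.93 without SD animal 6 and -0.83 without SD animal 7, both of the high cluster), that of FFC-DIA minus SD from 0.36 to 1.53 and that of FFC-DIA minus FFC from 1.87 to 2.91. No order of the 3 groups exceeded the spread. The genes most like COL4A2 in panel-relative level were the chemokine CXCL12 (r = 0.41, rho = 0.54) and the endothelial growth factor VEGFA (r = 0.40, rho = 0.46, both n = 28).

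ITGA5, the alpha chain of the fibronectin receptor, ranged from -5.25 to -3.53 in SD (median -4.34), from -4.68 to -2.13 in FFC (median -3.91) and from -5.68 to -2.98 in FFC-DIA (median -4.23). Of 13 FFC animals, 5 were above every SD animal. Mean levels were -4.36 ± 0.58 in SD, -4.25 ± 0.93 in FFC-DIA and -3.56 ± 0.72 in FFC (standard deviation), and neighbours in this order did not differ beyond their spread. The FFC minus SD difference was 0.79 ± 0.30 (SE, exact permutation p = 0.0227, adjusted p = 0.0875, and 0.0350 without FFC animal 13) and that of FFC-DIA minus FFC was -0.68 ± 0.38 (adjusted p = 0.247). Relative to the panel mean these values were 0.27 ± 0.14 and -0.40 ± 0.23, with exact permutation p-values of 0.0785 and 0.0562 before adjustment. The small FFC-DIA minus SD difference of 0.11 ± 0.39 changed sign to -0.13 ± 0.24 on the panel-relative scale and to -0.04 with ACTB and TBP1 as references.

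The ratio of FN1 to ITGA5, ligand to receptor, had means of 1.86 ± 0.74 in SD, 2.52 ± 0.94 in FFC-DIA and 2.38 ± 0.75 in FFC (standard deviation). No pair of groups passed the exact permutation test for it (adjusted p from 0.559 to 0.861). ITGA5 was most like endothelial nitric oxide synthase, NOS3 (r = 0.62, rho = 0.54), and the BMP antagonist GREM1 (r = 0.58, rho = 0.58, both n = 28), with r of 0.48 and 0.49 without the 2 animals farthest from the ITGA5 median. The NOS3 level was 0.84 above SD in FFC (adjusted p = 0.0978) and 0.86 lower in FFC-DIA than in FFC (adjusted p = 0.201, exact permutation test), and its FFC-DIA minus SD difference was -0.03. The other endothelial marker, CDH5, differed by 0.46 in FFC vs. SD and by -0.25 in FFC-DIA vs. FFC. The summed level of both markers ran from -2.64 to -1.36 in SD, from -2.28 to -1.03 in FFC-DIA and from -2.37 to -0.53 in FFC. Their part in the ITGA5 values was not tested.

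TIMP2, an inhibitor of matrix metalloproteinases, rose in FFC against SD on the reference scale. The level was between -3.92 and -2.07 in SD (median -2.98), between -3.12 and -0.62 in FFC (median -2.12) and between -3.61 and -1.15 in FFC-DIA (median -2.84). Of 13 FFC animals, 4 were above every SD animal, and 12 of 13 were above the SD mean. The difference was 0.88 ± 0.30 (SE), a factor of 1.84, with p = 0.00623 and adjusted p = 0.0448 in the exact permutation test over 73 genes. Means were -2.98 ± 0.67 in SD, -2.52 ± 0.85 in FFC-DIA and -2.10 ± 0.60 in FFC (standard deviation). SD and FFC-DIA, and FFC-DIA and FFC, did not differ beyond their spread (adjusted p = 0.790 and 0.413, exact permutation test). With 1 animal left out, TIMP2 ran from 0.26 to 0.61 in FFC-DIA minus SD and from -0.62 to -0.26 in FFC-DIA minus FFC.

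The TIMP2 call lay near the threshold. It held with RPL4 as the single reference gene (difference 1.69, adjusted p = 0.0227, exact permutation test). There 53 of 73 genes passed and the panel median difference was 1.37, so this says little about TIMP2. The TIMP2 call did not hold relative to the panel mean or with RPL4 left out. The FFC minus SD difference was 0.36 ± 0.12 relative to the panel mean, with 12 of 13 FFC animals above the SD mean and 4 of 7 SD animals below every FFC animal. That gave an exact permutation p of 0.00502 and an adjusted p of 0.117, as 1.37% of genes passed there. With RPL4 left out the difference was 0.47. Leaving out 1 animal at a time ended the call for 14 of 20 animals, named in the closing section, with adjusted p-values from 0.0166 to 0.113.

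TIMP2 followed the macrophage mannose receptor MRC1 (r = 0.76, rho = 0.65) and the metalloproteinase MMP2 (r = 0.74, rho = 0.69) more closely than any other gene of the panel over the 28 animals, and r was 0.58 with MRC1 and 0.63 with MMP2 without the 2 animals farthest from the TIMP2 median. MRC1 rose by 0.86 ± 0.26 in FFC against SD on the reference scale (adjusted p = 0.0448, exact permutation test). It did not pass relative to the panel mean (0.34, adjusted p = 0.373) or with ACTB and TBP1 as references (0.45, adjusted p = 0.357). On the reference scale the other macrophage markers had differences of 0.53 (CD68) and 0.58 (ADGRE1), with adjusted p-values of 0.194 and 0.148. The summed macrophage level ran from -3.43 to -1.77 in SD, from -2.63 to -0.75 in FFC-DIA and from -2.59 to -0.87 in FFC. Per animal, TIMP2 exceeded MRC1 by 1.24 ± 0.15 in SD, 0.78 ± 0.46 in FFC-DIA and 1.26 ± 0.43 in FFC (log2 ratio, standard deviation). FFC-DIA was lower than SD in this ratio by 0.46 ± 0.17 (SE, exact permutation p = 0.0117, adjusted p = 0.134 over 2628 pairs). The part of macrophage RNA in the TIMP2 values was not tested.

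Against its target and relative, TIMP2 gave ratios in which reference genes do not enter. TIMP2 over MMP2 was higher in FFC than in SD by 0.40 ± 0.14 (SE, exact permutation p = 0.00620, adjusted p = 0.124 over 2628 pairs), with 12 of 13 FFC animals above the SD mean. TIMP2 over TIMP1, another inhibitor of the family, was higher by 0.46 ± 0.11 (exact permutation p = 0.00471, adjusted p = 0.109), and 11 of 13 FFC animals exceeded every SD animal. Neither ratio passed after adjustment, and both were chosen after the values had been seen. In FFC-DIA vs. SD the ratios differed by 0.22 ± 0.19 and 0.12 ± 0.17.

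**Figure D3:**
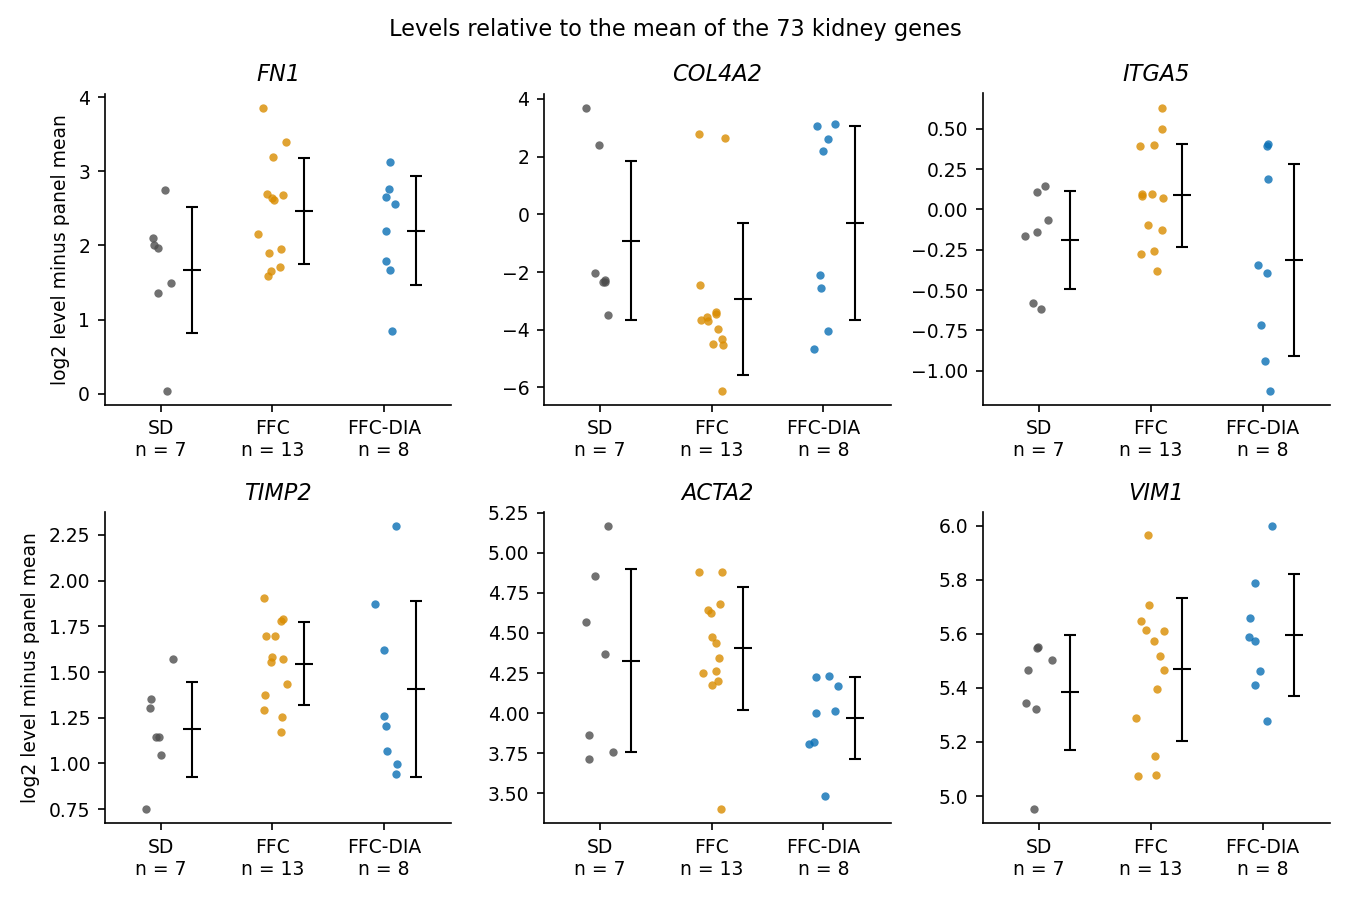
Panel-relative levels of the 6 genes in each animal (vertical axes, log2 level minus the mean of the 73 kidney genes in that animal) by group, with bars for the mean ± standard deviation. TIMP2 means are 1.19 in SD and 1.55 in FFC, and all 8 FFC-DIA points of ACTA2 lie below the FFC mean of 4.40.

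ACTA2, smooth muscle actin, had its lowest mean in FFC-DIA on both scales. Its level was between -0.91 and 1.20 in SD (median 0.08), between -0.40 and 2.10 in FFC (median 0.81) and between -1.08 and 0.85 in FFC-DIA (median 0.05). Mean levels were 0.04 ± 0.57 in FFC-DIA, 0.16 ± 0.68 in SD and 0.75 ± 0.68 in FFC (standard deviation). FFC-DIA and SD, next to each other in this order, differed by -0.12 ± 0.32 (SE), and SD and FFC by 0.59 ± 0.32 (adjusted p = 0.174, exact permutation test).

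The largest ACTA2 difference was between FFC-DIA and FFC, -0.71 ± 0.27 (SE), with p = 0.0213 and adjusted p = 0.166 in the exact permutation test. Of 8 FFC-DIA animals, 7 were below the FFC mean, and 6 of 13 FFC animals were above every FFC-DIA animal. Relative to the panel mean the difference was -0.43 ± 0.14, with 8 of 8 FFC-DIA animals under the FFC mean and 10 of 13 FFC animals above every FFC-DIA animal (exact permutation p = 0.0112, adjusted p = 0.117). Among the alternatives run it passed only with TBP1 as the single reference gene, with a difference of -0.74 and adjusted p = 0.0304 (exact permutation test), where 9 of 73 genes passed. The panel-relative mean was 4.33 ± 0.57 in SD, 3.97 ± 0.26 in FFC-DIA and 4.40 ± 0.39 in FFC (standard deviation), so all 8 FFC-DIA animals were also below the SD mean, by a difference of 0.36 ± 0.23 that did not pass (exact permutation p = 0.137).

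ACTA2 was most like TGFB3, a ligand of the TGF-beta family (r = 0.77, rho = 0.68), and TSP1, thrombospondin 1, a matrix protein that can activate latent TGF-beta (r = 0.45, rho = 0.47, both n = 28). Without the 2 animals farthest from the ACTA2 median r was 0.64 and 0.38. The ratio of ACTA2 to TGFB3 had close means in the groups, 6.70 ± 0.38 in SD, 6.66 ± 0.36 in FFC-DIA and 6.72 ± 0.26 in FFC (log2, standard deviation). TGFB3 itself lay 0.65 ± 0.30 (SE) lower in FFC-DIA than in FFC (adjusted p = 0.224, exact permutation test). PDGFRB, a receptor of pericytes and mesangial cells, lay 0.67 ± 0.29 above SD in FFC (adjusted p = 0.0973) and 0.57 ± 0.39 lower in FFC-DIA than in FFC (adjusted p = 0.320, exact permutation test). Its level ran from -4.75 to -3.02 in SD, from -5.07 to -2.58 in FFC-DIA and from -4.45 to -2.45 in FFC, and its part in the ACTA2 values was not tested.

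VIM1, the vimentin assay, rose in FFC against SD on the reference scale. In SD its level was between 0.71 and 1.91 (median 0.86), with animals 1, 2, 3 and 7 at 0.86, 0.71, 0.83 and 0.80 and animals 4, 5 and 6 at 1.91, 1.87 and 1.53. In FFC it was between 1.28 and 2.62 (median 1.90) and in FFC-DIA between 1.03 and 2.12 (median 1.76). All 13 FFC animals were above the SD mean, 6 of them above every SD animal, and 4 of 7 SD animals were below every FFC animal. Means were 1.22 ± 0.54 in SD, 1.66 ± 0.43 in FFC-DIA and 1.82 ± 0.37 in FFC (standard deviation).

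The FFC minus SD difference of VIM1 was 0.60 ± 0.23 (SE), a factor of 1.52, with p = 0.00878 and adjusted p = 0.0482 in the exact permutation test. It came close to the median difference of 0.55 over the 73 genes. Relative to the panel mean it was 0.08 ± 0.11 (exact permutation p = 0.475), and with RPL4 left out 0.19. Leaving out 1 animal at a time ended the call for 15 of 20 animals, with adjusted p-values from 0.0237 to 0.114. FFC-DIA lay 0.45 ± 0.25 above SD and 0.15 ± 0.19 below FFC, neither beyond the spread (adjusted p = 0.556 and 0.577, exact permutation test). The latter ran from -0.22 to -0.063 with 1 animal left out and changed sign on the panel-relative scale, to 0.13 ± 0.11. Panel-relative VIM1 varied least of the 6 members across all animals, with a standard deviation of 0.25. Its nearest genes were AGER, the receptor for advanced glycation end products (r = 0.44, rho = 0.36), and MMP2 (r = 0.44, rho = 0.44, both n = 28).

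The mesenchymal genes ACTA2 and VIM1 were also set against each other within each animal. The log2 ratio of ACTA2 to VIM1 was -1.06 ± 0.70 in SD, -1.63 ± 0.35 in FFC-DIA and -1.06 ± 0.57 in FFC (standard deviation). FFC-DIA lay below FFC by 0.56 ± 0.20 (SE, exact permutation p = 0.0232, adjusted p = 0.187 over 2628 pairs) and below SD by 0.57 ± 0.29 (exact permutation p = 0.0653, adjusted p = 0.375). In both comparisons 7 of 8 FFC-DIA animals were below the other group's mean. Of the 15 ratios between members, 0 passed in any of the 3 comparisons. At an unadjusted exact permutation p under 0.05 there were 0 in FFC vs. SD against 15.3% of all 2628 pairs, 1 in FFC-DIA vs. SD against 15.7%, and 4 in FFC-DIA vs. FFC against 19.4%. Of these 4, 3 contain COL4A2.

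**Figure D4:**
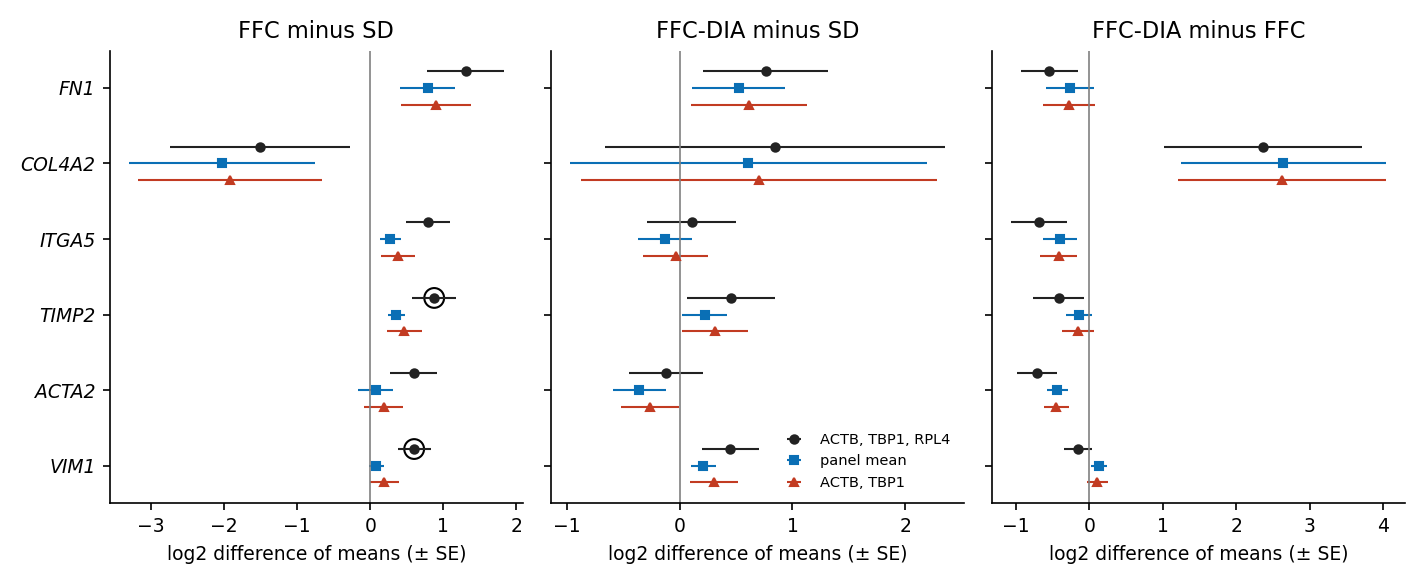
Difference of mean log2 levels between groups for each member (horizontal axes, ± SE) with 3 scalings: ACTB, TBP1 and RPL4 (circles), the panel mean (squares) and ACTB with TBP1 (triangles). Rings mark adjusted p under 0.05 by the exact permutation test, which TIMP2 (0.88) and VIM1 (0.60) reached in FFC minus SD with the 3 reference genes only.

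Correlations between the members were mixed in sign. Over the 28 animals, with group means subtracted from panel-relative levels, r between members ran from -0.50 to 0.57 with a median of 0.10 over 15 pairs, against a median of -0.0023 over the 2628 pairs of the panel. One pair, ITGA5 with TIMP2, exceeded 0.5 (r = 0.57, rho = 0.50), as did 4.53% of all pairs, and its r was 0.40 without the 2 animals farthest from the ITGA5 median. COL4A2 ran opposite to ITGA5 (r = -0.50, rho = -0.62) and to TIMP2 (r = -0.49, rho = -0.52), where the measure on one side lies in 2 clusters. VIM1 ran opposite to ACTA2 (r = -0.42, rho = -0.44) and to ITGA5 (r = -0.41, rho = -0.42). FN1 and its receptor gene ITGA5 were weakly related (r = 0.14, rho = 0.05), and r was -0.14 without the 2 animals farthest from the FN1 median. Left out in the same way, by the median of COL4A2, 2 animals moved r to -0.70 with ITGA5 and -0.52 with TIMP2.

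**Figure D5:**
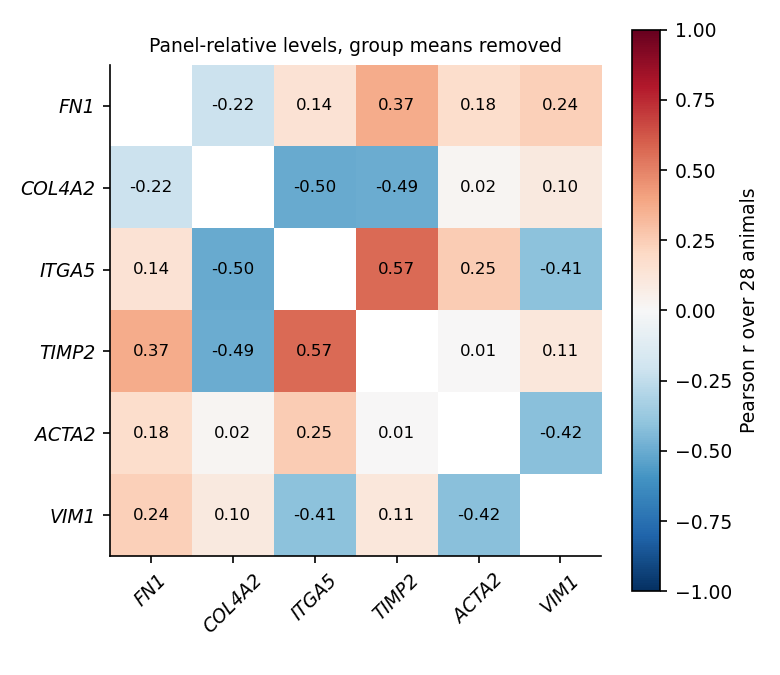
Pearson r between the members over 28 animals, computed on panel-relative levels after subtraction of group means; colour runs from -1 (blue) to 1 (red). ITGA5 with TIMP2 has the highest value, 0.57, and COL4A2 with ITGA5 the lowest, -0.50.

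On the reference scale single animals stood low or high in several members at once. SD animal 7 was the lowest SD animal for FN1, ITGA5, TIMP2 and ACTA2, with levels of -4.62, -5.25, -3.92 and -0.91. FFC-DIA animal 1 was the lowest of its group for these and for VIM1, with levels of -3.72, -5.68, -3.61, -1.08 and 1.03. Both belonged to the high COL4A2 cluster. FFC animal 13 was the lowest of its group for FN1, ITGA5, TIMP2 and VIM1, with levels of -2.70, -4.68, -3.12 and 1.28, and belonged to the low COL4A2 cluster, at -6.74. SD animal 4 was the highest SD animal for these genes, with levels of -0.89, -3.53, -2.07 and 1.91, and was at -6.00 for COL4A2. FFC animal 9 was the highest of its group for FN1, ITGA5, TIMP2, ACTA2 and VIM1, with levels of 0.15, -2.13, -0.62, 2.10 and 2.62, and the lowest for COL4A2, at -8.64.

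Beside the members, 13 further genes of the matrix and of fibrosis were described: the matrix genes COL1A1, LAMC1, HSPG2 and TSP1, the turnover genes MMP2 and TIMP1, the receptor ITGA3, the signals TGFB1, TGFB2, TGFB3 and CTGF, and PDGFRB and LGALS3. In FFC vs. SD all 13 had a positive difference on the reference scale and 1 passed, against 65 of 73 panel genes positive and 19.2% passing. On the panel-relative scale 5 of 13 were positive and 0 passed, against 39 of 73 and 1.37%. The one that passed was TSP1, with means of 1.17 ± 0.62 in SD, 1.26 ± 0.40 in FFC-DIA and 2.01 ± 0.57 in FFC (standard deviation). It rose by 0.84 ± 0.28 (SE) in FFC against SD (adjusted p = 0.0448, exact permutation test). In FFC-DIA vs. FFC it lay 0.75 ± 0.21 lower (adjusted p = 0.0537), and relative to the panel mean it fell by 0.47 ± 0.12 (adjusted p = 0.0261, exact permutation test). In FFC-DIA vs. SD 12 of 13 were positive, against 54 of 73 of the panel, in FFC-DIA vs. FFC 1 of 13, against 13 of 73, and none passed on the reference scale. Relative to the panel mean 6 of 13 were positive in FFC-DIA vs. SD, against 35 of 73. In FFC-DIA vs. FFC 8 of 13 were, against 32 of 73. TGFB1, the ligand most tied to scarring, rose by 0.25 ± 0.07 in FFC-DIA against FFC relative to the panel mean (adjusted p = 0.0479, exact permutation test), with a difference of -0.03 ± 0.20 on the reference scale. TSP1 and TGFB1 were the 2 of 13 genes that passed in FFC-DIA vs. FFC on the panel-relative scale, against 8.22% of the panel. The median differences of the 13 genes on the reference scale were 0.42, 0.12 and -0.21 in FFC vs. SD, FFC-DIA vs. SD and FFC-DIA vs. FFC, against 0.55, 0.21 and -0.33 over the panel. Relative to the panel mean all 3 changed sign, to -0.095, -0.114 and 0.066, against 0.035, -0.023 and -0.048 over the panel.

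Of the 12 cell type markers, 11 were higher in FFC than in SD on the reference scale, and NPHS1, a podocyte slit diaphragm gene, and MRC1 passed the exact permutation test, close to the 65 of 73 genes higher and 19.2% passing over the panel. The other podocyte marker, WT1, was 0.25 higher and did not pass. Relative to the panel mean WT1 was at -0.26 and NPHS1 at 1.02 in this comparison, and neither passed. Relative to the panel mean 7 of 12 markers were higher in FFC than in SD, against 39 of 73 genes. CD8A, of cytotoxic T cells, passed with a difference of -1.40 ± 0.35 (adjusted p = 0.0264, exact permutation test). It also passed in FFC-DIA vs. SD, with -1.04 ± 0.34 (adjusted p = 0.0416). The other T cell markers did not pass, CD3E at -0.03 and -0.19 and CD4 at -0.13 and -0.10 in these comparisons. On the reference scale CD8A did not pass in FFC vs. SD (-0.89), where CD3E and CD4 were 0.49 and 0.39 higher. CD8A was a late assay, with a mean Cq of 18.1. In FFC-DIA vs. FFC the macrophage gene CD68 passed relative to the panel mean, 0.72 ± 0.19 higher (adjusted p = 0.0261, exact permutation test). On the reference scale CD68 did not pass (0.44, adjusted p = 0.347). Relative to the panel mean the other macrophage markers did not pass, with MRC1 at 0.34 and ADGRE1 at -0.22. On this scale 1 of 12 markers thus passed in each comparison, against 1.37%, 4.11% and 8.22% of the panel in FFC vs. SD, FFC-DIA vs. SD and FFC-DIA vs. FFC. The part of cell numbers in the members' values was not tested.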

How the data were processed

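Kidney RNA of 28 animals was assayed on a microfluidic qPCR chip. Per the labels and the study's methods, the authors reverse transcribed 2 cDNA replicates per RNA, pre-amplified them, inspected melting curves and deposited Cq values of 77 assays without normalization (other unit, PCR cycles), averaged per animal. For some animals a single cDNA stands behind the Cq. Averaging 2 values can leave a further decimal. None of the FN1, COL4A2, ITGA5, TIMP2 and ACTA2 Cq values of SD animals 1, 3, 4, 5 and 7 had one. Most FFC and FFC-DIA animals had at least 1. A single cDNA may thus be more frequent in SD, where its part cannot be told apart from diet and was not tested. The authors' deposited fold-change table was not used, since cells of 1 column hold words in place of ratios.

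Levels were computed as the average cycles of ACTB, TBP1 and RPL4, the reference genes the authors name, minus gene Cq, with a factor of 2 per cycle and no efficiency correction. By the study's methods, efficiencies were measured with standard curves, assays outside an accepted range were dropped and the authors corrected their data for efficiency. Whether the deposited Cq values carry this correction is not given in the sources used here. Tests ran on all 73 kidney genes: a permutation test of the F statistic (100000 labellings, Bonferroni) and two-sided exact permutation tests of mean differences over all splits (77520, 6435 and 203490), counting absolute differences at least as large as the observed one, with Benjamini-Hochberg adjustment at 0.05. Log ratios were tested over all 2628 gene pairs, an addition made after seeing the data. Standard errors allow unequal variances. qPCR has no read depth, so the animal number and the Cq limit the precision. No 2 animals held identical values.

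Named genes were the 6 members, other matrix genes that passed any comparison, and for each member the 2 genes with the highest r. An item of the matrix gene list is not reported here. Ratios outside the members, cell type markers and IGF1 were added. Members and lists were chosen with earlier results of these data known. Of the 6 names, 5 are found as pig gene symbols in RefSeq and VIM1 is not. Scripts were tested on simulated data. Alternatives covered other reference genes, centring on the panel mean or median, linear quantities, ranks, limma, F or t distributions, the other adjustment, a replicate block, a Cq limit of 18 and each animal left out. Python 3.11.15, SciPy 1.17.1, R 4.3.3 and limma 3.58.1 were used.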

Additional observations from a re-analysis of the deposited data

Results flagged for a closer look

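Among 24 sets of values examined (6 genes, 2 scales, SD and FFC-DIA), 2 held an animal far from its group by Dixon's gap test, which chance alone meets in about 1 in 20 groups. The FN1 level of FFC-DIA animal 1 was -3.72, and its gap to the next animal made up 0.740 of the group's range, against a critical value of 0.526. The panel-relative VIM1 level of SD animal 3 was 4.95, with a gap of 0.615 of the range against a critical value of 0.568. The FFC group, with 13 animals, is too large for this test. Without FFC-DIA animal 1 the FN1 difference was 1.04 instead of 0.76 for FFC-DIA minus SD and -0.26 instead of -0.54 for FFC-DIA minus FFC. Without SD animal 7 the FFC-DIA minus SD difference was 0.41. None of these passed the exact permutation test.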

How the results depend on the processing

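Of the results named here, the count of members called in FFC vs. SD depended most on the processing. It was 2 with the 3 reference genes, with p-values from the t distribution and with late assays left out, where 14, 14 and 13 panel genes passed. It was 5 with RPL4 alone (all but COL4A2), 1 with limma (FN1) and 0 with ACTB, TBP1 or GAPDH alone, all 4 reference genes, ACTB and TBP1 without RPL4, centring on the panel mean or median, linear quantities, ranks, Bonferroni adjustment or the replicate block. Leaving out 1 animal gave 0 to 4 members and 0 to 24 panel genes. The count moved by over 1.5 times without SD animal 1, 2, 3 or 7 or any FFC animal except animal 6. In FFC-DIA vs. FFC the count was 1 with TBP1 alone (ACTA2), where 9 panel genes passed, and 0 to 0 with 1 animal left out. It was 0 in the 3-group test and in FFC-DIA vs. SD under all alternatives run.

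The replicate number comes from the sample titles, and nothing says that it pairs animals. Deviations of same-numbered animals correlated at -0.48 to 0.54, over 0.1 in 5 of 22 pairs. With this number as a block in limma, 0 members and 12 panel genes passed in FFC vs. SD, against 1 member and 9 panel genes in limma without it.

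Signs turned under several settings. GAPDH alone, with a Cq of 20.6 in SD animal 6, gave in FFC vs. SD -0.021 for FN1, -0.53 for ITGA5, -0.45 for TIMP2, -0.73 for ACTA2 and -0.72 for VIM1. In FFC-DIA vs. SD it gave -0.76 for FN1, -0.68 for COL4A2, -1.42 for ITGA5, -1.07 for TIMP2 and -1.08 for VIM1. ITGA5 in FFC-DIA vs. SD was also -0.27 with TBP1 alone, -0.27 with all 4 reference genes, -0.036 without RPL4, -0.13 and -0.29 on centring by panel mean and median, and -0.040 with the block. ACTA2 in that comparison was 0.17 with RPL4 alone. In FFC-DIA vs. FFC, ACTB alone gave 0.014 for FN1, 0.14 for TIMP2 and 0.40 for VIM1, and VIM1 was 0.11 without RPL4, 0.13 centred on the panel mean and 0.00086 on the median. With 1 animal left out, ITGA5 in FFC-DIA vs. SD ran from -0.073 to 0.31 and ACTA2 from -0.30 to 0.051, each around 0. Another scaling by reference genes or panel adds 1 constant to the difference of every gene in a comparison. For GAPDH alone it was -1.33 in FFC vs. SD and -1.53 in FFC-DIA vs. SD. The sign changes under such a scaling are therefore not separate results of single genes. What moved the reference genes, and the changes under the other settings, was not tested.

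The TIMP2 call ended without SD animal 1, 2, 3 or 7 or FFC animal 1, 2, 3, 4, 5, 7, 8, 9, 10 or 12, and that of VIM1 also without FFC animal 11. FN1 over COL1A1 had an adjusted p of 0.0226 with ranks and of 0.0714 from the t distribution. With 1 animal left out its adjusted p ran from 0.00869 to 0.0484, but FFC and SD animals stay fully separated whichever animal is left out, so this range says nothing about stability. The deposited fold-change table was not run.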
